A study of Heliconius melpomene malleti and Heliconius melpomene plesseni with 96 samples.

Results

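The proximal forewing is the section of the forewing nearest the body, and its RNA was compared here between day 5 and day 3 of the pupal stage in the butterfly Heliconius melpomene. The comparison used 12 of the 96 arrays of the series, chosen by their labels for tissue and stage. They were 3 arrays of Heliconius melpomene malleti and 3 of Heliconius melpomene plesseni on each day, called independent replicates by the submitters. All were wild-type tissue with no treatment given, and nothing in the labels tells whether an RNA sample came from 1 animal or from several, or from which sex. The other 84 arrays hold days 1 and 7 of the same wing section, and all 4 days of the eye, the hindwing and the distal forewing. The labels do not tie arrays to individuals, so tissues of 1 animal may be on several of them. Arrays are named by group and by a replicate number that runs over the whole series.

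During the pupal stage a butterfly wing is a folded double sheet of epithelium in which scale cells and their sockets are set apart from the surrounding cells. Scale cells then grow flat projections, lay down a cuticle with ridges, and finally fill with pigment, chiefly ommochromes for red and melanin for black. The races compared here differ in colour pattern. In Heliconius, pattern is controlled by a few loci, among them Ac, where the signalling gene WntA lies, B/D with the transcription factor optix, and Yb with cortex. No feature on these arrays carried a gene name, so none of these roles can be attached to a measurement below. Features carry a scaffold name with first and last base. Their genome build was not given in the sources used here.

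Each array gave 1 level for each of 12832 features, of which 12778 were predicted genes. Another 51 were transcribed features of 3 sequenced stretches, the AC, BD and YB walks, whose names match the colour loci, and 3 were summaries of tiled probes. Levels are log2 intensities after quantile normalization over the 96 arrays, and a difference of 1 is a 2-fold change. The median intensity of the 12 arrays before normalization ran from 50.1 to 158, within the range of 22.98 to 376 over the series. With no gene names, tissue markers could not be looked up, and the labels were checked by rank correlation with other arrays instead. Each of the 12 arrays ranked features most like arrays of its own day (Spearman rho 0.895 to 0.979 with its own tissue and day, 0.863 to 0.909 with the other day), and 0 of the 12 were most like an eye. By tissue, 4 of the 12 were most like the proximal forewing, 6 the hindwing and 2 the distal forewing, so this measure did not tell the wing sections apart. Replicate 18, a plesseni array of day 5 with the lowest median intensity of the 12, had the lowest correlation with its own tissue and day. Replicates 9 and 83 of malleti and replicates 10 and 84 of plesseni, all of day 3, resembled each other more than most replicates (Pearson r 0.988 and 0.991 across features, against a median of 0.946 over all 96 pairs of the series).

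Between day 3 and day 5 the proximal forewing changed at 1944 of 12832 features, 15.1% of those tested. Of the 1944, 1030 rose (8.03%) and 914 fell (7.12%) at an adjusted p under 0.05 (limma, Benjamini-Hochberg over all features, 6 arrays against 6, race as a factor). The median change was 2.08 on the log2 scale among those that rose and -1.62 among those that fell, against -0.06 over all features. At 2-fold or more 1836 were called (14.3%), 984 upward (7.67%) and 852 downward (6.64%). Large changes were more often upward: 546 features rose and 277 fell at least 4-fold, 143 rose and 50 fell at least 16-fold, and 15 rose and 6 fell at least 64-fold. The 6 arrays of day 5 all lay above the 6 of day 3 at 593 of the 1030, where 4.79% of all features had that order, and all below at 426 of the 914, where 3.62% had it. In RNA from whole tissue, fewer cells of a type and less RNA per cell cannot be told apart. With the replicates that resembled each other averaged to 1 sample a pair, 1004 features were called, 620 upward and 384 downward. The count was 292 with slide as a fixed term, 1082 at detector gain 440 alone and 3262 with array weights.

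The largest rise among called features of at least 3 probes was at HE669301 108681 to 113035. In malleti its level was 3.69, 3.34 and 3.15 on day 3 and 11.24, 11.70 and 11.50 on day 5. In plesseni it was 3.16, 4.04 and 3.35 on day 3 and 9.62, 12.91 and 9.94 on day 5. All 6 arrays of day 5 lay above all 6 of day 3, and the rise averaged 7.70 ± 0.49 on the log2 scale (SE; limma, adjusted p = 2.36e-06), or 207-fold. Lack of overlap between the days was a condition for choosing this feature, the next rise and the largest falls. The high level was found on day 5 alone: the arrays of day 1 averaged 3.86 ± 0.92 and those of day 7 averaged 5.30 ± 0.45 (SD, n = 6 each).

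HE671226 164893 to 167361 rose by nearly as much and stayed up. Malleti arrays stood at 4.28, 3.55 and 3.87 on day 3 and at 13.10, 10.78 and 12.76 on day 5. Plesseni arrays stood at 5.06, 5.75 and 4.06 on day 3 and at 13.28, 9.59 and 12.68 on day 5. The days did not overlap, and the rise was 7.60 ± 0.63 (SE; limma, adjusted p = 7.86e-06), or 194-fold. On day 7, 5 of the 6 arrays lay between 12.67 and 13.03, and the array labelled malleti replicate 69 gave 6.44. That array ranked features more like the eye arrays of day 7 (rho 0.980) than like the other proximal arrays of day 7 (rho 0.870). Averages and medians of proximal levels on day 7 include it throughout.

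The largest fall was at HE670537 48899 to 54230, which was measured by 4 probes. Malleti levels were 13.81, 13.47 and 13.95 on day 3 and 6.78, 3.53 and 7.19 on day 5. Plesseni levels were 13.78, 11.70 and 13.97 on day 3 and 6.02, 4.32 and 3.47 on day 5. The feature fell by 8.23 on the log2 scale (SE 0.67; limma, adjusted p = 7.14e-06), with a gap between the lowest array of day 3 and the highest of day 5. It had averaged 5.72 ± 1.29 on day 1, so its high level in this wing section was found on day 3 alone.

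HE671547 73513 to 80980, of 9 probes, followed the same course. Its malleti levels were 13.14, 10.81 and 13.59 on day 3 and 3.72, 5.06 and 5.85 on day 5. Its plesseni levels were 13.56, 11.77 and 13.67 on day 3 and 5.87, 6.89 and 7.19 on day 5. Again the days did not overlap, and the fall was by 6.99 on the log2 scale (SE 0.56; limma, adjusted p = 6.65e-06). Levels of 4.04 ± 0.46 on day 1 and 4.60 ± 0.68 on day 7 stood on either side of the day 3 peak.

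**Figure D1:**
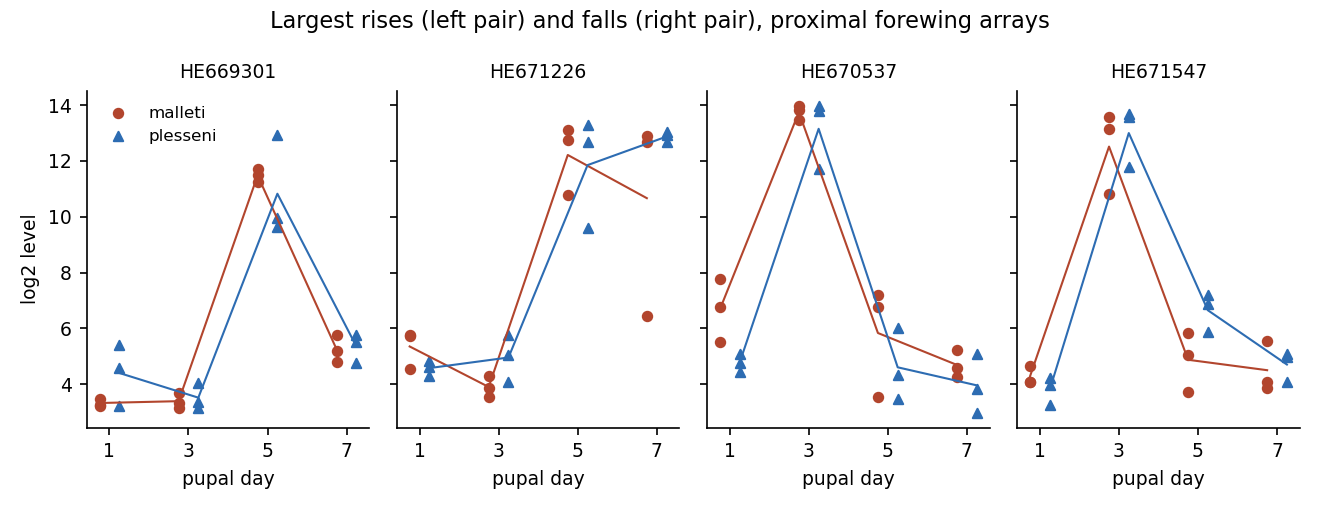
Log2 level of the 4 features with the largest changes (vertical axis) against pupal day (horizontal axis), one point per proximal forewing array, circles for malleti and triangles for plesseni, with lines through the race means. HE669301 is high on day 5 alone, HE671226 is high on days 5 and 7 except in replicate 69 at 6.44, and HE670537 and HE671547 are high on day 3 alone.

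Both races changed in the same direction at nearly all called features, namely at 1021 of the 1030 that rose and 902 of the 914 that fell. This count is partly set by the choice of features, which were called on the average of the races. Over all 12832 features, the steps of malleti and plesseni, which share no array, correlated with a Pearson r of 0.72 and a Spearman rho of 0.59. Taken alone, malleti changed at 949 features (7.4%), 582 upward (4.54%) and 367 downward (2.86%). Plesseni changed at 827 features (6.44%), 506 upward (3.94%) and 321 downward (2.5%). The malleti count was 523 to 627 without any one of replicates 83, 9, 85 and 63, and the plesseni count was 460 and 477 without replicates 10 and 84. Of the features that rose over both races, 337 also passed in each race alone, as did 157 of those that fell. The calls of single races use the same arrays and fit as the call over both, so these counts are not independent of it.

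**Figure D2:**
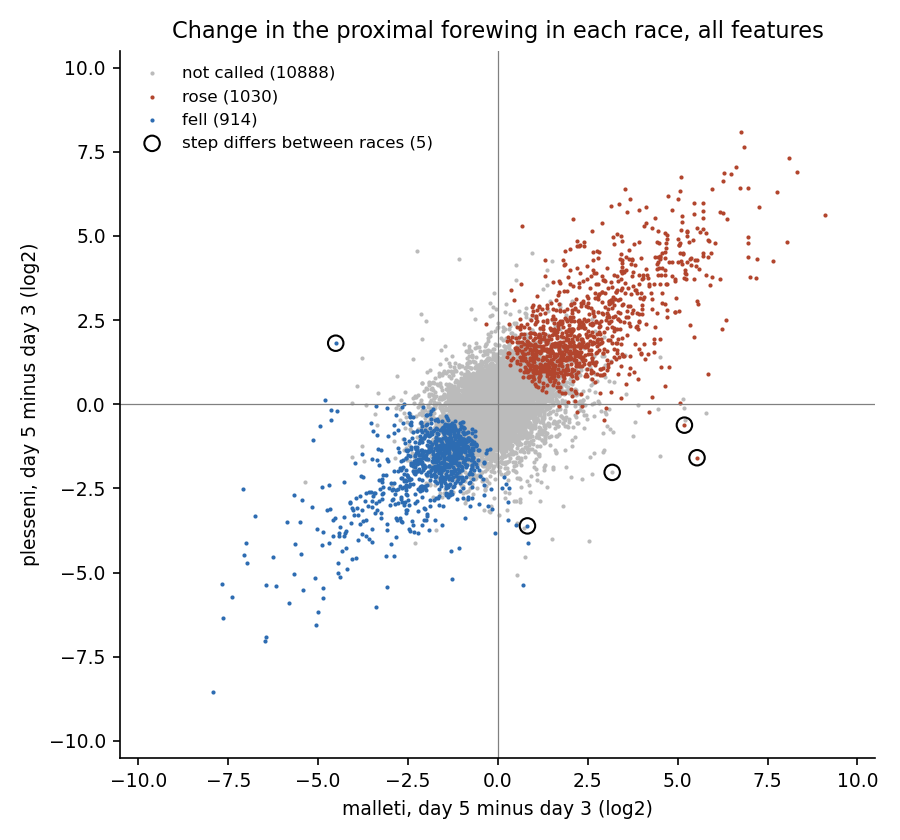
Day 5 minus day 3 in malleti (horizontal axis) and in plesseni (vertical axis), both as log2 change, one point per feature. Features that rose (1030) and fell (914) lie along the diagonal, and the 5 circled features, at which the step differed between the races, lie off it.

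The step itself differed between the races at 5 features, 0.039% of those tested (limma, plesseni step minus malleti step). The plesseni step was the higher at 1 (0.00779%) and the lower at 4 (0.0312%), and 631 features had an unadjusted p under 0.05. At 4 of the 5, malleti and plesseni differed on day 3 and were not called different on day 5. HE671692 69501 to 70133 stood at 5.72, 8.10 and 6.01 in malleti and at 13.44, 11.72 and 13.71 in plesseni on day 3. On day 5 it stood at 11.91, 12.72 and 11.82 in malleti and at 11.61, 12.20 and 10.30 in plesseni. The malleti arrays were thus all below the plesseni arrays on day 3 and overlapped them on day 5. The rise was 5.54 in malleti and the change was -1.59 in plesseni, a difference of -7.13 ± 1.03 (SE; limma, adjusted p = 0.042).

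HE670742 684369 to 689026 had the same pattern. Its malleti arrays gave 4.68, 5.44 and 4.80 on day 3 and 10.14, 10.42 and 9.93 on day 5. Its plesseni arrays gave 10.55, 10.15 and 10.80 on day 3 and 8.74, 11.39 and 9.51 on day 5. Malleti rose by 5.19 to reach the range that plesseni held on both days, and the difference between the steps was -5.81 ± 0.80 (SE; limma, adjusted p = 0.035). HE671791 10674 to 13445, named here after its values were seen, gave 7.00, 7.91 and 6.84 in malleti and 12.49, 12.54 and 12.29 in plesseni on day 3. On day 5 the same feature gave 9.72, 10.72 and 10.85 in malleti and 10.55, 10.99 and 9.72 in plesseni. A rise of 3.18 in malleti met a change of -2.02 in plesseni, so that the races overlapped on day 5 (difference -5.20 ± 0.64, SE; limma, adjusted p = 0.021).

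In the opposite direction, HE671110 102069 to 119223 was high in malleti on day 3, at 8.37, 9.48 and 7.91, against 3.88, 3.25 and 5.03 in plesseni. On day 5 it had dropped to 4.31, 4.05 and 3.87 in malleti and stood at 5.79, 6.82 and 4.98 in plesseni. On that day all plesseni arrays lay above all malleti arrays, a difference that was not called. Plesseni averaged 4.05 on day 3 and 5.87 on day 5. Malleti lost a level that plesseni had not shown on day 3, and the plesseni step exceeded the malleti step by 6.32 ± 0.83 (SE; limma, adjusted p = 0.025). HE671345 56254 to 62042, also named after its values were seen, was the only one of the 5 called different between the races on day 5. It stood at 13.02, 13.44 and 13.22 in malleti and at 9.97, 10.37 and 10.59 in plesseni on that day (race difference -2.92; limma, adjusted p = 0.010). On day 3 it stood at 12.37, 12.33 and 12.52 in malleti and at 13.98, 13.73 and 14.05 in plesseni. Plesseni alone came down, by 3.61 on the log2 scale, and the steps differed by -4.43 ± 0.44 (SE; limma, adjusted p = 0.0047).

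Day 1 arrays of this wing section, which the test had not used, already separated the races at the HE671692, HE670742 and HE671791 features, and narrowly at HE671345. At HE671692 the malleti arrays of day 1 lay at 8.70, 8.70 and 8.67 and the plesseni arrays at 13.21, 13.24 and 13.62. At HE671791 they lay at 8.99, 8.96 and 8.98 against 12.00, 12.21 and 12.41. At HE670742 the lowest plesseni array of day 1 was at 10.21 and the highest malleti array at 9.36. For HE671345 these were 11.11 and 11.02. By contrast, the HE671110 feature was low in both races on day 1, between 3.52 and 4.61.

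The 5 race differences had the same sign in the hindwing and in the distal forewing, whose arrays the test had not used either. In the distal forewing they ran from -4.87 to 3.82 and 4 of the 5 had an unadjusted p under 0.05, and in the hindwing they ran from -4.97 to 6.33 and 4 of the 5 did. Adjusted over all features, none of the 5 passed in either section, where limma called 0 features and 188 and 515 had an unadjusted p under 0.05. Without the dim arrays limma again called 0 distally, with 492 unadjusted, and the HE671791 feature had an adjusted p of 0.205 there, while all 5 had an unadjusted p under 0.05. In the hindwing it likewise called 0, with 540 unadjusted, and 3 of the 5 had an unadjusted p under 0.05. In the proximal forewing itself the count of 5 became 0 with the resembling replicates averaged. It was 18 without replicate 62, 9 without replicate 79, 8 without replicate 80, and 1 or 2 without any one of replicates 9, 10, 17, 63, 83, 84 and 85. Among 25 alternative settings the call was lost in 13 at HE671692, 12 at HE670742, 11 at HE671110, 10 at HE671791 and 5 at HE671345. The adjusted p of the 5 ran from 0.000411 to 0.789 over these settings.

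**Figure D3:**
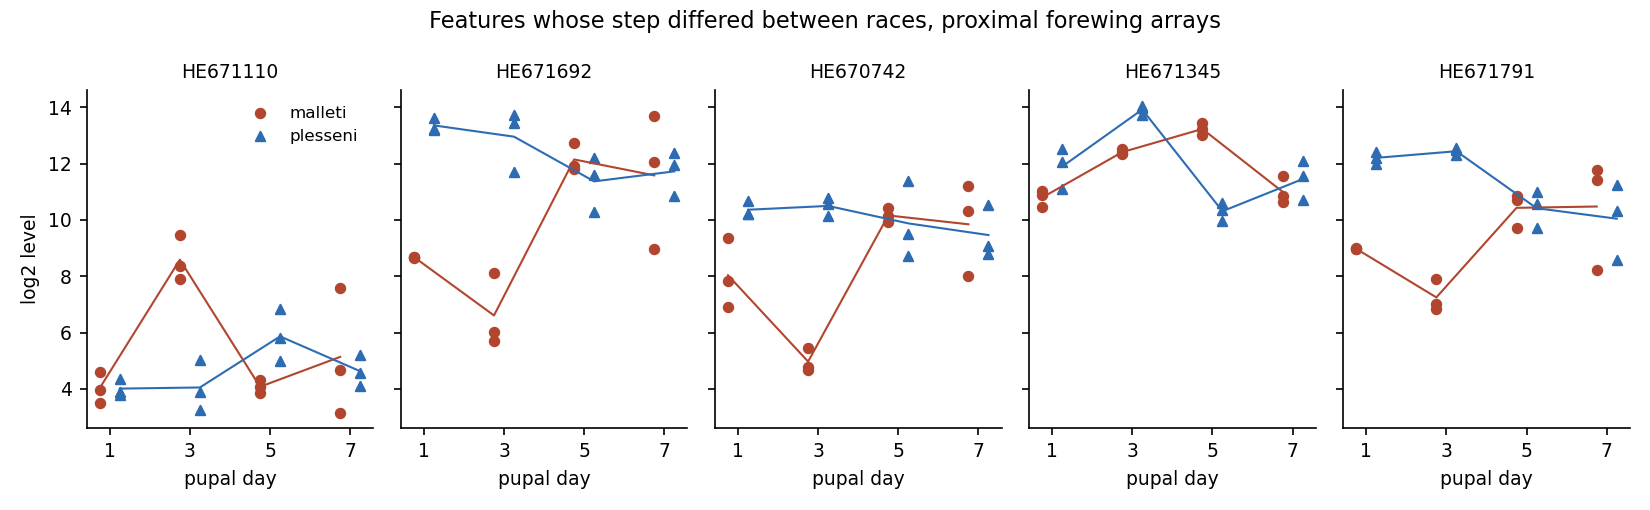
Log2 level (vertical axis) against pupal day (horizontal axis) for the 5 features whose step differed between the races, one point per proximal forewing array, circles for malleti and triangles for plesseni, with lines through the race means. At HE671692, HE670742 and HE671791 malleti is below plesseni on days 1 and 3 and joins it on day 5, HE671110 is high in malleti on day 3, and HE671345 is lower in plesseni on day 5.

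The races compared within a day gave few calls. On day 3, 24 features differed (0.187%), 20 higher (0.156%) and 4 lower (0.0312%) in plesseni, with 643 at an unadjusted p under 0.05. On day 5, 1 feature differed (0.00779%), the HE671345 feature just described, with 601 at an unadjusted p under 0.05.

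The features that changed in the proximal forewing were next followed in the other tissues, each fitted on its own 12 arrays. In the distal forewing the 1030 features that rose had a median step of 1.99, against -0.11 over all features, and 552 of them were called upward. Those were 53.6% of the proximal list and 552 of the 665 features called upward distally, which made up 5.18% of all features. In the hindwing their median step was 2.09 and 818 were called upward, 79.4% of the proximal list and 65.3% of the hindwing list, against 9.76% of all features. The 914 that fell had median steps of -1.52 in the hindwing and -1.30 in the distal forewing. Of these, 284 were called downward distally (31.1% of the proximal list, 284 of the 451 called distally, 3.51% of all features) and 654 in the hindwing (71.6% of the proximal list, 44.9% of the hindwing list, 11.4% of all features). Calls in the opposite direction numbered 0 in both wing sections. Distal arrays of these days include 3 dim ones, replicates 34, 42 and 55, and without them 674 of the risers were called upward (6.8% of all features) and 444 of the fallers downward (6.54%).

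Larger changes were called more often in the other wing sections, as a call depends on the size of the step, and this was not tested. Of the features that rose under 4-fold in the proximal forewing, 29.1% were called upward distally and 62.2% in the hindwing. Their median steps there were 1.22 and 1.32, with 0 called downward. Of those that rose 16-fold or more, 97.2% and 99.3% were called upward. For the falls these shares were 21.7% and 64.5% under 4-fold while at 16-fold or more 39 and 49 of the 50 were called. Across all 12832 features the proximal step correlated with the distal step at a Pearson r of 0.85 and with the hindwing step at 0.89, and with the eye step at 0.38. The 3 correlations share the proximal arrays, and all arrays were normalized together.

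A direct test of the difference called no feature. In a fit of the 48 arrays of days 3 and 5, limma called 0 features for proximal minus distal, with 260 at an unadjusted p under 0.05, and 0 for proximal minus hindwing, with 238. Without the dim arrays of days 3 and 5 both counts remained 0, with 565 and 469 unadjusted. Without replicate 58 alone, 1 feature was called against the hindwing. A count of 0 does not show that the sections changed alike.

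**Figure D4:**
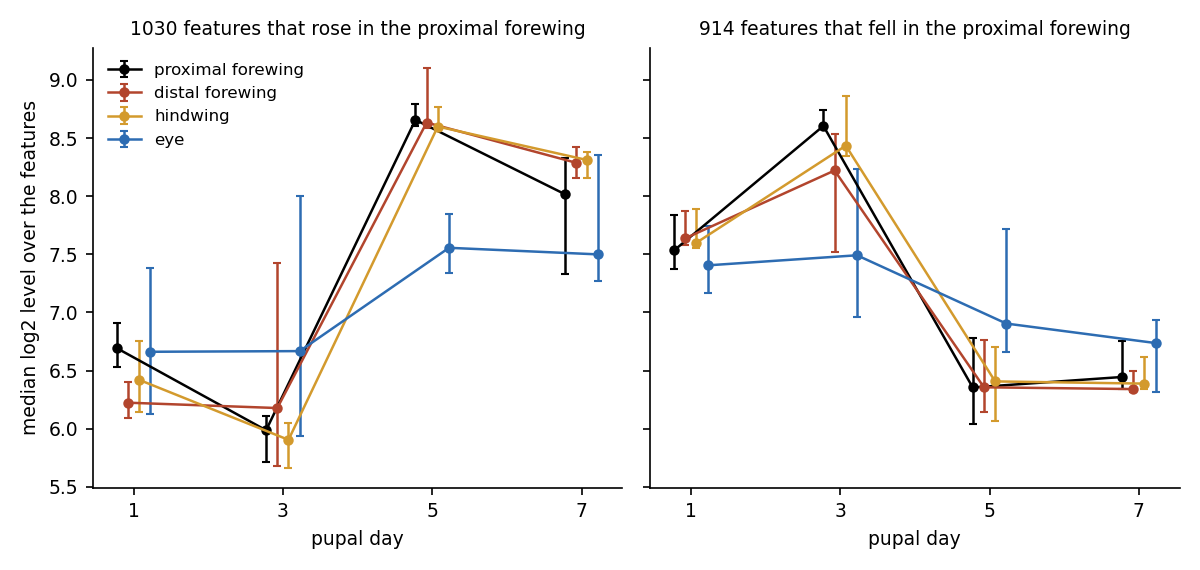
Median log2 level (vertical axis) over the 1030 features that rose (left) and the 914 that fell (right) in the proximal forewing, by pupal day (horizontal axis) and tissue, with bars from the lowest to the highest array median of 6 arrays. Proximal levels of days 3 and 5 chose the features, and the proximal arrays of day 7 include replicate 69. The wing sections run close together, and the eye moves less between days 3 and 5.

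The eye followed in part. Of the 1030 features that rose, 780 had a positive step in the eye, the median step was 0.60, and 89 were called upward (8.64% of the proximal list, 56.7% of the eye list, 1.22% of all features). Of the 914 that fell, 34 were called downward there (3.72% of the proximal list, 47.2% of the eye list, 0.561% of all features), with a median of -0.40. Eye arrays of these days include 3 dim ones, replicates 8, 16 and 60. Without them 263 of the risers and 209 of the fallers were called in the same direction, against 4.64% of all features each way, and the correlation of the proximal and eye steps was 0.54 in place of 0.38.

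In the same fit the proximal and eye steps differed at 426 features (3.32%), with 2295 at an unadjusted p under 0.05. At 260 the proximal step was the higher (2.03%) and at 166 the lower (1.29%). By the proximal test itself, 215 of the former rose (8.03% of all features) and 110 of the latter fell (7.12%). The medians were 2.48 in the proximal forewing and -0.19 in the eye for the 260, and -1.75 and 1.02 for the 166. The same arrays chose these features, which largely fixes such counts and medians. The split changed with scaling and arrays: it was 21 higher and 174 lower on the deposited log2 scale, 212 and 75 centred on array medians, and 235 (1.83%) and 251 (1.96%) without the dim arrays, in all 486 (3.79%). The total was 1970 without eye replicate 82, and it was 263 to 281 without any one of replicates 7, 60, 10, 63, 83 and 84.

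HE671890 33999 to 38269 had the largest positive difference. Its proximal levels were 5.83, 6.16 and 5.53 in malleti and 5.19, 5.93 and 5.12 in plesseni on day 3. On day 5 they were 12.37, 11.92 and 12.71 in malleti and 12.52, 12.24 and 11.96 in plesseni. The proximal forewing thus rose 101-fold with little spread (log2 change 6.66 ± 0.26, SE; limma, adjusted p = 1.16e-07), while the eye averaged 6.53 ± 2.96 on day 3 and 4.62 ± 1.38 on day 5 (SD, n = 6 each). The difference of the steps was 8.57 ± 1.01 (SE; limma, adjusted p = 5.17e-06) and 7.34 without the dim arrays. On day 5 it averaged 12.62 in the hindwing and 12.12 in the distal forewing, so those sections were high as well. HE669613 66600 to 67799, measured by 1 probe, had the largest negative difference, at -6.43 ± 1.47 (SE; limma, adjusted p = 0.0093). In the proximal forewing it gave 6.14, 8.93 and 5.43 in malleti and 7.49, 4.50 and 7.25 in plesseni on day 3, and 2.79, 4.80 and 3.35 and 4.87, 3.97 and 3.02 on day 5. The days overlapped there (-2.83 ± 0.70, SE; limma, adjusted p = 0.017), while the eye went from 9.98 ± 2.96 to 13.59 ± 0.36 (SD, n = 6 each). Centred on array medians, its difference had an adjusted p of 0.052.

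The same lists were set against days 1 and 7 of the proximal forewing, which share no array with the step. The median level of the risers was 6.69 on day 1, 5.99 on day 3, 8.66 on day 5 and 8.02 on day 7. For the fallers the medians were 7.53, 8.60, 6.35 and 6.44. Both medians of day 7 include replicate 69. Of the risers, 529 were higher and 42 were lower on day 7 than on day 1, where 14.7% of all features were higher and 16.8% lower (limma). Of the fallers, 401 were lower and 45 higher. Without replicate 69 the counts were 606 and 49 for the risers and 410 and 58 for the fallers, where 16.7% of all features were higher and 17.2% lower.

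By size of the change, which was not tested, the shares were as follows. Among the 143 features that rose 16-fold or more, 74.8% were higher on day 7 than on day 1, with a median difference of 2.69. Among the 50 that fell 16-fold or more, 17 were lower on day 7, with a median difference of -0.49, against 42.4% and -0.57 of the 637 that fell under 4-fold and 50.2% and -0.96 of the 227 between. The HE670537 feature was among the 17, whereas the HE671547 feature differed by 0.56 between day 7 and day 1 and was not called (limma, adjusted p = 0.22).

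Most features that changed did not lie next to one that changed in the same direction, but such neighbours were more frequent than among all features, a difference that was not tested. Among 11642 predicted genes placed in order without overlap, the neighbour of a feature that rose at least 2-fold had itself risen in 17.6% of 1519 cases, against 7.93% of all these features. It had fallen in 3.95%, against 6.72%. The neighbour of a feature that fell had itself fallen in 13.9% of 1314 cases, against 6.72%. Runs of 3 or more neighbours called in one direction numbered 23 upward, with 76 features, and 9 downward, with 30 features. Probe sequence was not compared between neighbours.

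The longest upward run held 7 features on HE672080 from 124184 to 260010, with a median rise of 3.55. Its first feature, from 124184 to 132124, went from 11.17, 10.40 and 11.09 to 13.25, 13.31 and 13.23 in malleti and from 9.62, 9.84 and 9.77 to 11.98, 12.28 and 14.01 in plesseni. The feature from 252564 to 257717 had the largest rise of the run, from 3.61, 4.40 and 4.38 to 8.96, 8.54 and 8.92 in malleti and from 4.45, 4.94 and 3.85 to 9.69, 8.26 and 9.23 in plesseni (4.66 ± 0.32, SE; limma, adjusted p = 2.56e-06). In 6 of the 7 the days did not overlap, an order found at 4.79% of all features and at 593 of the 1030 risers. The choice of called features on the same arrays largely fixes such a count. All 7 were also called upward in the hindwing (9.76% of all features) and distally (5.18%), and 1 of the 7 in the eye (1.22%). Eye calls of the runs were counted with the dim eye arrays, without which 4.64% of all features were called upward there. The proximal step of the first feature exceeded the eye step by 1.78, and by 0.01 without the dim eye arrays. The last, from 258500 to 260010, rose by 4.66 ± 0.55 (SE), from 4.48 ± 1.03 to 9.14 ± 1.44 (SD, n = 6 each).

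There were 3 upward runs of 4, and those 2 with the higher median rise are described by member, on HE670488 from 80421 to 133713 (median 2.65) and on HE671280 from 782676 to 802167 (median 2.40). The other one, on HE671155 from 24631 to 49025, had a median rise of 2.17. In the eye, where the median step was 3.20, 3 of its 4 features were called upward too, against 1.22% of all features. Members of the HE670488 run were uneven on day 5. Its last feature, from 131328 to 133713, lay between 2.99 and 3.58 on day 3. On day 5 it gave 9.59, 4.14 and 7.05 in malleti and 12.77, 3.93 and 12.00 in plesseni, so that replicates 63 and 62 were barely above day 3 (4.97 ± 1.34, SE; limma, adjusted p = 0.026). That call was lost in 8 of 26 alternative settings, with an adjusted p of up to 0.106, and on day 7 all 6 arrays were back between 3.55 and 4.58. The first feature of the run, from 80421 to 93729, rose by 1.85 ± 0.32 (SE), from 2.82 ± 0.31 to 4.67 ± 0.88 (SD, n = 6 each).

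On HE671280 the last feature, from 796584 to 802167, rose 72.4-fold (log2 change 6.18 ± 0.36, SE; limma, adjusted p = 1.57e-06). It lay between 6.09 and 7.65 on day 3 and between 11.68 and 13.62 on day 5. The first, from 782676 to 783333, rose by 2.05 ± 0.34 (SE), from 5.59 ± 0.55 to 7.64 ± 0.76 (SD, n = 6 each). None of the 4 was called in the eye, where their median step was -0.52 and 1.22% of all features were called upward. In the hindwing 3 were called upward (9.76% of all features) and in the distal forewing 1 (5.18%).

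Both of the longest downward runs lay on HE671115. The run of 5 from 235110 to 298596 had a median fall of 4.80 on the log2 scale, and the run of 4 from 118988 to 180141 a median change of -5.84. At 268900 to 269670, the level of 14.85, 14.56 and 15.11 in malleti and 15.32, 14.56 and 15.32 in plesseni on day 3 gave way to between 7.09 and 9.02 and to 8.30, 10.03 and 5.77 on day 5. This was a fall by 6.75 on the log2 scale (SE 0.61; limma, adjusted p = 1.58e-05) with no overlap of the days. At 118988 to 133004 the fall was by 6.55 (SE 0.50; limma, adjusted p = 5.14e-06), from 12.99 ± 0.78 to 6.43 ± 1.15 (SD, n = 6 each). At 235110 to 251940 it was by 4.37 (SE 0.54), from 10.25 ± 1.31 to 5.89 ± 0.83.

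At some members of these runs, single arrays of day 5 stayed closer to the level of day 3. At 295836 to 298596 the malleti arrays of day 5 gave 4.87, 4.21 and 5.32, whereas plesseni gave 10.03, 5.98 and 11.02, after 11.05 to 12.26 in all arrays of day 3. The race difference of this step was not called (4.58; limma, adjusted p = 0.689). At 179344 to 180141, replicates 63 and 62 had come down to 7.37 and 9.70 on day 5, while the other 4 arrays lay between 11.89 and 13.57, after 13.98 to 14.95 on day 3 (-3.07 ± 0.95, SE; limma, adjusted p = 0.048). On day 7 all 6 arrays of that feature lay between 4.82 and 6.09. Its call was lost in 12 of 26 alternative settings, with an adjusted p of up to 0.221. Replicates 62 and 63, which were low at HE671115 179344 and at HE670488 131328 on day 5, had the lowest rank correlations with day 1 of the 6 arrays of day 5, at 0.855 and 0.859 against 0.866 to 0.896. With the day 7 arrays other than replicate 69 theirs were 0.922 and 0.945, where the 6 ran from 0.886 to 0.962. The part of stage in these values was not tested.

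In the eye 0.561% of all features were called downward, among them 2 of the run of 4 and 2 of the run of 5. Of the 7 downward runs of 3, that with the largest median change, on HE671993 from 47863 to 95471, had 0 called there and a median fall of 3.27 on the log2 scale in the proximal forewing. Its middle feature, from 59270 to 74196, went from 8.62, 7.68 and 8.99 to 4.63, 4.37 and 4.14 in malleti and from 8.15, 8.63 and 8.54 to 4.69, 2.54 and 4.26 in plesseni. This was a fall by 4.33 on the log2 scale with no overlap (SE 0.38; limma, adjusted p = 1.24e-05). The feature from 83696 to 95471 fell by 3.27 (SE 0.57), from 12.41 ± 0.45 to 9.14 ± 1.39 (SD, n = 6 each). The feature from 47863 to 50080 fell by 1.10 (SE 0.25), a change that had an adjusted p of 0.486 on the deposited log2 scale and 0.638 after centring on array medians.

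Among the 381 scaffolds with at least 10 features, HE669253 had the highest share of features that rose at least 2-fold, 7 of 12, followed by HE671208 with 4 of 10 and HE670768 with 3 of 10. HE671993 had the highest share that fell, 5 of 11, followed by HE671115 with 12 of 31 and HE668524 with 3 of 10. HE671115 also held 2 features that rose, and HE668524 held 1. Over all features, 7.67% rose and 6.64% fell at least 2-fold. These scaffolds were picked as the extremes of the 381, and whether their shares exceed what such a ranking gives by chance was not tested. Predicted genes that rose spanned a median of 6856 bases and those that fell 4141 bases, against 5106 over all predicted genes. At least 9 probes measured 979 of the 1030 that rose and 91.5% of those that fell, against 90.6% of all.

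Among the 51 walk features, 0 rose and 6 fell, so that 11.8% were called. Of all features 8.03% rose and 7.12% fell, and 15.1% were called in either direction. Each walk held 2 of the 6, of 16 features in AC, 22 in BD and 13 in YB, and each feature had 3 probes. Median changes were -0.41 in AC, -0.18 in BD and -0.12 in YB. A positive change was found at 18 of the 51 and at 5880 of all 12832 features. Also, 11 of the 51 had an unadjusted p under 0.05 (limma), as did 3682 of all 12832 features.

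In the YB walk, the feature at 449912 to 464173 fell by 3.70 on the log2 scale (SE 0.42; limma, adjusted p = 8.55e-05). Its levels were 9.52, 8.96 and 9.24 in malleti and 11.15, 9.69 and 10.58 in plesseni on day 3, and 6.59, 4.53 and 5.09 and 7.79, 6.78 and 6.15 on day 5. Every array of day 5 lay below every array of day 3. On day 7 replicate 69 gave 4.12, and the other arrays lay between 4.97 and 5.37. The feature at 670119 to 671182 went from 13.52, 13.85 and 13.71 to 10.82, 9.85 and 11.69 in malleti and from 13.15, 12.97 and 13.97 to 12.54, 10.68 and 9.82 in plesseni. The days again did not overlap (-2.62 ± 0.46, SE; limma, adjusted p = 0.0022). The other 11 YB features had changes between -0.93 and 1.00 and were not called.

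In the BD walk, the feature at 571903 to 572610 fell by 3.08 on the log2 scale (SE 0.50; limma, adjusted p = 0.0013). It stood at 9.51, 11.05 and 10.06 in malleti and at 10.58, 11.96 and 11.05 in plesseni on day 3, and at 8.45, 5.71 and 8.39 and at 8.23, 7.64 and 7.29 on day 5. The feature at 261815 to 262831 fell by 1.45 (SE 0.29; limma, adjusted p = 0.0049), from 10.99 ± 0.28 to 9.54 ± 0.50 (SD, n = 6 each). In both the days did not overlap. Neither was called in the eye, where their changes were 0.85 and 0.33. Without the dim eye arrays, the proximal step minus the eye step was -0.90 and 0.20 and was not called at either.

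The calls of the AC walk were weaker. The feature at 267761 to 273653 fell by 1.57 (SE 0.45; limma, adjusted p = 0.034), from 11.54, 9.31 and 11.49 to 9.42, 9.65 and 10.31 in malleti and from 11.76, 10.32 and 11.44 to 8.25, 9.58 and 9.25 in plesseni. The days overlapped, since malleti replicate 79 of day 3 lay below 4 of the 6 arrays of day 5. The predicted gene with equal position, HE668478 267761 to 273653, of 9 probes, fell by 1.34 (SE 0.41; limma, adjusted p = 0.046). At 292749 to 297843 the walk feature fell by 1.61 on average (SE 0.49; limma, adjusted p = 0.046), with changes of -3.09 in malleti and -0.12 in plesseni. The race difference was not called (adjusted p = 0.733, unadjusted 0.010), and the days overlapped, with a plesseni array at 5.28 on day 3 and another at 7.41 on day 5. Its HE668478 counterpart changed by -0.44 ± 0.53 (SE; adjusted p = 0.647). The call at 292749 was lost in 15 and that at 267761 in 12 of 25 alternative settings. Each of the 16 AC features had such a counterpart, 12 of the 16 pairs had the same sign of change, and the median absolute difference within a pair was 0.21.

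**Figure D5:**
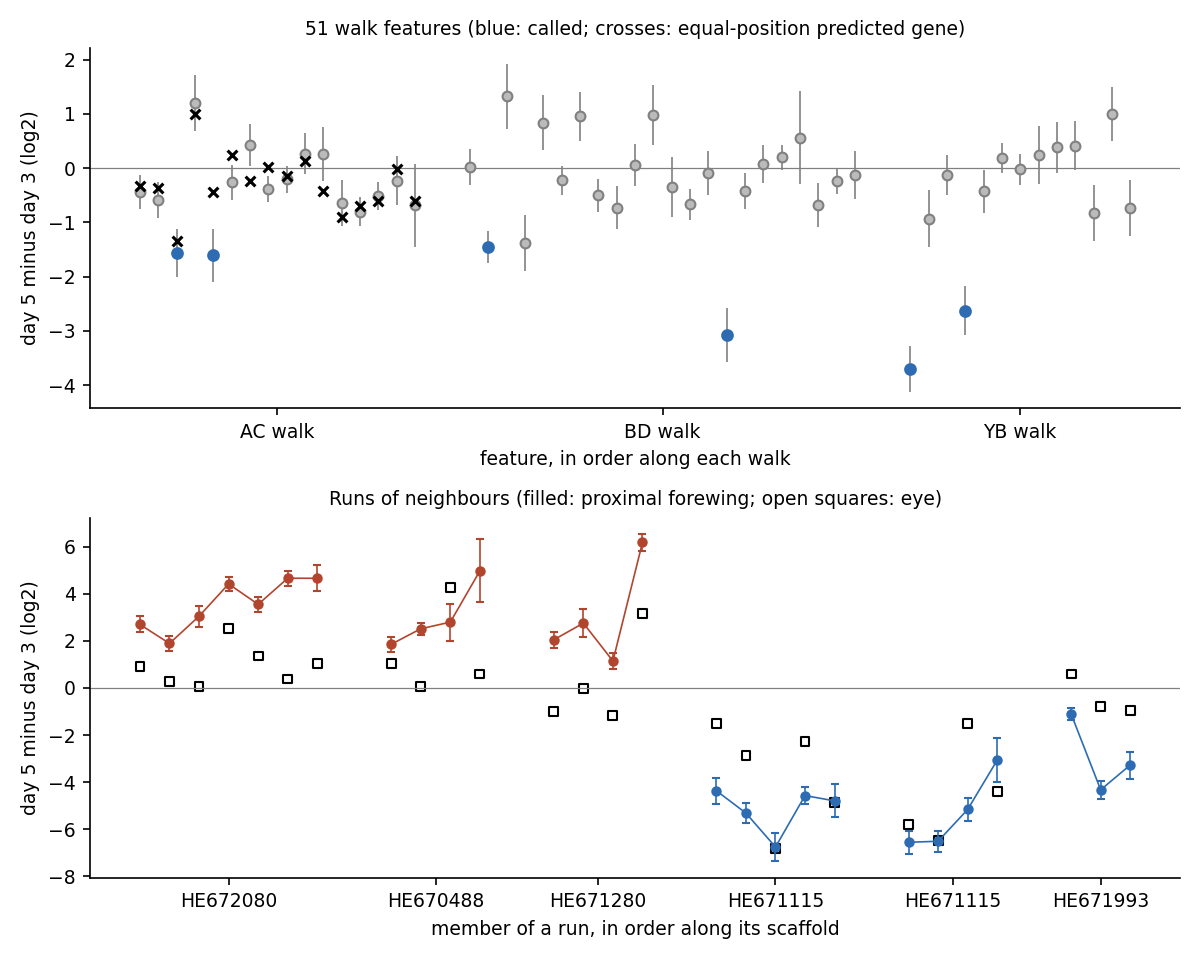
Day 5 minus day 3 in the proximal forewing (vertical axes, log2 change, bars of 1 SE) for the 51 walk features in order along each walk (top) and for the members of the 6 runs of neighbours described in the text, 3 in each direction (bottom). In the top panel 6 features called downward are blue and crosses mark the predicted gene of equal position to each AC feature. In the bottom panel open squares give the change of the same feature in the eye, with the dim eye arrays included. It is nearer to 0 than the proximal change at most features of HE672080 and HE671993. At some features of HE671115 it is level with the proximal change.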

How the data were processed

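Total RNA, labelled with Cy3, was hybridised to one-colour arrays of 9 probes for most predicted genes, per the labels' protocols and the design text. The authors deposited 1 linear intensity per feature and array, summarised by RMA per the submitters' processing notes; no version or setting of it was given. The deposited standard errors and the value table of the whole series were not used. The log2 of each intensity was quantile-normalized over the 96 arrays in limma (3.58.1, under R 4.3.3). Means of the 4 groups of race and day were fitted to the 12 arrays (8 residual degrees of freedom). Contrasts were tested by limma's moderated statistics (eBayes) with Benjamini-Hochberg adjustment over 12832 features and a threshold of 0.05. Differences between tissues were fitted on the 48 arrays of days 3 and 5 with 32 residual degrees of freedom. Arrays were treated as independent, so p-values measure the spread between these samples, and their number limits the precision.

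Slide and detector gain (440 or 460) were read from the array names. The 12 arrays lay on 7 slides, and 3 of these held both days. Within those 3 slides the risers had median differences of 1.96, 2.15 and 2.09 and the fallers of -1.54, -1.77 and -1.61, a direction that the choice of features on the same arrays largely fixes. Race was not balanced between the days on these slides. Replicate 17 of malleti stood against replicate 10 of plesseni. Replicate 64 of plesseni stood against 79 of malleti and 84 of plesseni. Replicates 18 of plesseni and 63 of malleti stood against 80 of plesseni. At gain 440 there were 5 arrays of day 3 and 4 of day 5.

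Features could not be named: 0 of 12832 matched the RefSeq gene table of assembly ASM5695672v1, so gene lists were not examined. Instead the text names the 2 largest rises and falls with at least 3 probes and no overlap of days, up to 2 race differences of the step each way, the largest difference each way from another tissue, called walk features of at least 2-fold, the 3 longest runs each way (ties by median change) with up to 3 members, and the 3 scaffolds with the highest share each way. Members and lists were chosen with earlier results of these data known. Settings without dim arrays (median log2 intensity under 5.5, with replicate 69 for day 7) and with the resembling replicates averaged were chosen after seeing the data. The fit was also run on simulated data with independent noise. These held no slide effects, dim arrays or resembling replicates, so that run does not bear on them. No genome or probe sequence was used here.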

Additional observations from a re-analysis of the deposited data

Results flagged for a closer look

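In the test of single arrays that lie apart, 64 groups of 6 arrays (32 named features, days 3 and 5) were examined, and chance alone gives about 1 in 20. There were 2 such arrays. At HE670537 48899 to 54230, replicate 80 of plesseni gave 11.70 on day 3, where the nearest array gave 13.47. At HE671993 59270 to 74196, replicate 62 of plesseni gave 2.54 on day 5, where the nearest gave 4.14.

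The step differed between the races by test at the 5 features described above, by 6.32 at HE671110 102069 to 119223, -7.13 at HE671692 69501 to 70133, -5.81 at HE670742 684369 to 689026, -4.43 at HE671345 56254 to 62042 and -5.20 at HE671791 10674 to 13445 (plesseni step minus malleti step, log2). The proximal step differed from the eye step at 426 features, with differences of 8.57 at HE671890 33999 to 38269 and -6.43 at HE669613 66600 to 67799.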

How the results depend on the processing

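No paired analysis was possible because each replicate number occurs once in the series. The step, called at 1944 features, gave 292 with slide as a fixed term (2 residual degrees of freedom, hence little power), 1082 with arrays of gain 440 alone, 3262 with array weights and 1004 with the resembling day 3 replicates averaged, and 1400 to 2400 when one array was left out. At 2-fold or more, the count of 1836 became 292, 1082 and 1004 with slide, gain 440 and averaging, and 1388 to 2253 without one array. In the same order of slide, gain 440 and averaging, malleti alone (949) gave 0, 381 and 399, plesseni alone (827) gave 171, 485 and 340, and the race difference of the step (5) gave 0 in each.

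On the deposited log2 scale malleti gave 598, plesseni 494 and proximal minus eye (426) 195. Array weights gave 3329 for malleti and 47 for the race difference. Without the 3 dimmest arrays plesseni gave 1349 and the race difference 21. With all 96 arrays in the fit the race difference gave 3 and proximal minus eye 1051. Leaving out one array gave 523 to 1169 for malleti, 460 to 991 for plesseni, 1 to 18 for the race difference, 0 to 1 for proximal minus hindwing and 263 to 1970 for proximal minus eye. Proximal minus distal stayed at 0 in every setting run (limma). Several of these settings leave fewer arrays or degrees of freedom, and the cause of the changes in count was not tested.

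Centring on array medians moved the median step of all features from -0.06 to 0.08, and the majority of calls turned downward on the deposited scale (664 upward, 784 downward), with array weights (1561, 1701) and without replicate 18 (1192, 1208). The walk count of 6 became 0 with slide as a fixed term and 4 to 8 without one array. The named features with the largest rises and falls kept their direction and their call in every setting run. Having 3 arrays a group limits the tests of single races, and dim eye and distal arrays limit the comparisons with those tissues.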
